A study of Mus musculus with 2 samples.

Results

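The genes described here encode enzymes that attach glutathione, glucuronic acid or sulfate to small molecules, carboxylesterases that cut ester bonds, and the Abcc pumps that carry conjugates out of the cell. They were chosen by gene symbol as the glutathione transferases (Gst followed by a class letter and number, and Mgst), glucuronosyltransferases (Ugt), sulfotransferases (Sult), carboxylesterases (Ces) and Abcc transporters. The rule found 91 of the 22072 gene symbols in the tables. RNA was sequenced from 2 libraries of cells sorted from adult mouse lung as negative for lineage markers, positive for CD326 and intermediate for CD24, a sort meant to enrich secretory airway epithelium free of ciliated cells. Each library held the pooled RNA of 4 mice. The control mice carried tetOCre and floxed Mst1 and Mst2 alleles (tetOCre/Mst1-flx/flx;Mst2-flx/flx), and the other mice carried Scgb1a1-rtTA in addition. All mice ate doxycycline food at 625 mg/kg for 16 days. The Scgb1a1 promoter drives the Cre activator mainly in club cells and related secretory cells, so other cells in the gate may keep both genes. The genotypes also differ in the activator and in active Cre, and these cannot be told apart from the deletion.

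Levels are FPKM, the fragments mapped to a transcript scaled to its length and to the depth of the library, so levels can be compared between genes. With 1 library per genotype there is no replicate error and no test. A difference is given as a ratio of FPKM with a 95% exact interval from approximate read numbers, which covers counting error only and says nothing of the spread between mice or sorts. A gene passed the filter with FPKM of 1 or more in either library, and was counted as higher or lower where FPKM + 1 differed by 1.5-fold or more. Approximate reads on all listed transcripts came to 8772257 for the control and 8339858 for the other library, of which 88916 and 63035 lay on members. The targeted genes Stk4 (Mst1) and Stk3 (Mst2) had FPKM of 5.38 and 7.28 in the control and 4.71 and 7.09 with Scgb1a1-rtTA, over transcripts that may keep exons Cre does not remove. The library with Scgb1a1-rtTA is therefore called the library labelled Mst1/2-deleted. Wherever a pair of values is given, the control comes first and the library labelled Mst1/2-deleted comes second, and a ratio below 1 means a lower level in the latter. Of the markers of club cells, the main airway secretory cell, Cyp2f2 was among the most abundant transcripts (FPKM 4694 and 5305). Scgb1a1 is listed at 0 in both libraries with a failed estimate. The alveolar type 2 cell marker Sftpc was also high, at 7888 and 10269.7.

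These families form the conjugation stage of the handling of drugs, pollutants and reactive lipids. Oxidation by cytochromes, for which club cells are known, can create electrophiles. Glutathione transferases join these to glutathione, glucuronosyltransferases and sulfotransferases make alcohols and phenols more soluble, and carboxylesterases free or inactivate esters. Abcc pumps then move the products across the membrane with ATP. Several of the families lie in clusters of near-identical genes, and the Ugt1a genes are alternative starts of a single locus with common last exons.

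Of the 91 members, 36 passed the filter. Of these, 7 were lower by the 1.5-fold rule and 0 were higher, while 2.59% of all 9945 genes that passed the same filter were lower and 3.02% higher. With differences centred on the median of all genes, 8 members were lower and 0 higher, against 3.27% and 2.09% of all genes. The 7 lower members were the carboxylesterase Ces1f, the glucuronosyltransferases Ugt1a6a, Ugt1a6b and Ugt1a5, the microsomal transferase Mgst2, the sulfotransferase Sult1d1 and the alpha class transferase Gsta1. The other 29 members lay within 1.5-fold. By a 2-fold rule 4 members were lower (Ces1f, Ugt1a6a, Mgst2 and Sult1d1) and 0 higher, against 0.975% and 0.754% of all genes. The median log2 difference of the 36 members was -0.24, against 0.07 for all genes that passed. Below 0 lay 23 members (63.9%) and 36.8% of all genes. Over all 91 members the median was -0.02, and over the 26 that passed and share at most 10% of their sequence with another gene it was -0.08, with 3 lower. On a TPM scale 17 of 48 members were lower and 2 higher, against 8.79% and 6.79% of all genes. That scale kept the filter and the added value at 1, while summed FPKM was 145668 and 150932. Both thus acted at a lower level than on the FPKM scale, and members with few reads entered, such as Sult2a2 (about 4 and 0 reads). A lower level in a bulk sample may come from fewer cells of a type or from less RNA per cell, and these cannot be told apart.

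**Figure D1:**
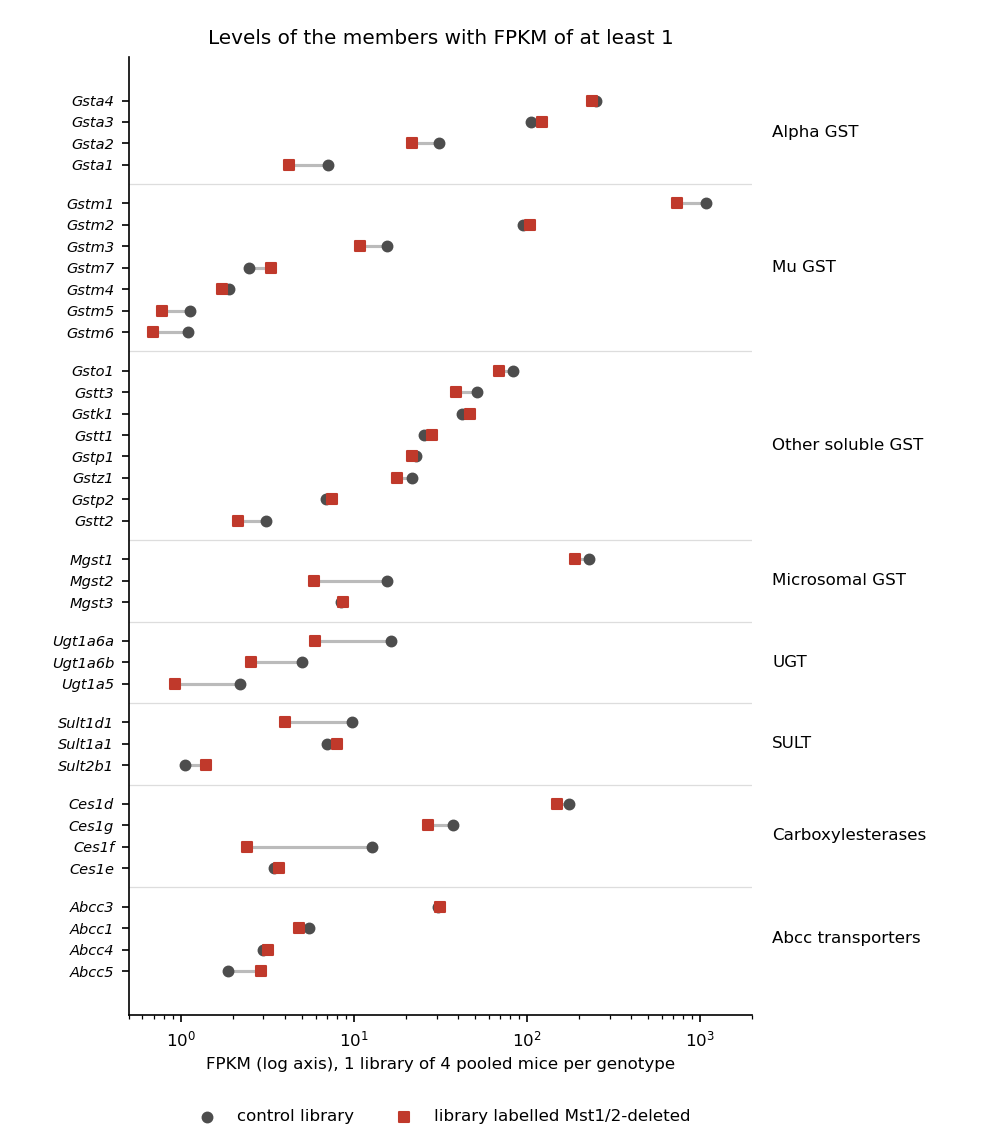
FPKM of the 36 members that passed the filter, on a log axis, grouped by family. Circles are the control library and squares the library labelled Mst1/2-deleted (1 pool of 4 mice each). The widest gap is that of Ces1f, from 12.8 to 2.42, while Gstm1 is the most abundant member in both libraries.

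The members differed in how far their reads can be told from those of relatives. Transcripts of each member in GENCODE release M21 (build GRCm38) were cut into stretches of 50 bases. These were looked for in the GENCODE transcripts of other genes of the tables, and genes without a matched transcript were not searched. Of the 36 members, 18 shared no stretch with another gene, 10 shared over 10% and 6 shared over 50%. Ugt1a6a and Ugt1a6b shared 80.6% and 80.7% of their stretches, Ugt1a5 63.97%, and Gsta1 and Gsta2 49.6% and 63.5%. The GENCODE transcripts of Ugt1a6a and Ugt1a5 gave 2248 and 2154 stretches, while their deposited transcripts are 3302 and 3208 bases long. Part of those 2 deposited transcripts was therefore not compared, and their shares over the full length may differ. Mgst2 and Sult1d1 shared none, and Ces1f shared 0.533%. The first 90 coding bases below show the range, chosen because these genes hold most of the lower calls. They are 5′ to 3′, and capitals mark positions that differ between Ces1d and Ces1f.
Gsta1 and Gsta2 (identical): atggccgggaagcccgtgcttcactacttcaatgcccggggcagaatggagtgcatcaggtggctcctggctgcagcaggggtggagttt
Ugt1a6a and Ugt1a6b (identical): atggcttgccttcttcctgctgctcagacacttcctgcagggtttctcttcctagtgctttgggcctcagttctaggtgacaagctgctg
Ces1d: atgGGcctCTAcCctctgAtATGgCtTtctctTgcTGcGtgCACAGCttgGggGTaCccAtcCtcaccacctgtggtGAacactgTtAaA
Ces1f: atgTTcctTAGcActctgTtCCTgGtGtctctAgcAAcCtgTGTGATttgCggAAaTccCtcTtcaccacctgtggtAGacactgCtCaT
Gsta1 and Gsta2 had no mismatch in these 90 bases and were 97.5% identical over their coding sequences, and Ugt1a6a and Ugt1a6b had none and were 98.4% identical. Ces1d and Ces1f had 33 mismatches in the 90 bases and 77.2% identity over the coding sequence. How Cufflinks shared reads among the Ugt1a genes and between Gsta1 and Gsta2 therefore bears on their single values, and their sums are given beside them. Ces1f, Mgst2 and Sult1d1 were lower with at most 0.533% of their sequence shared.

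**Figure D2:**
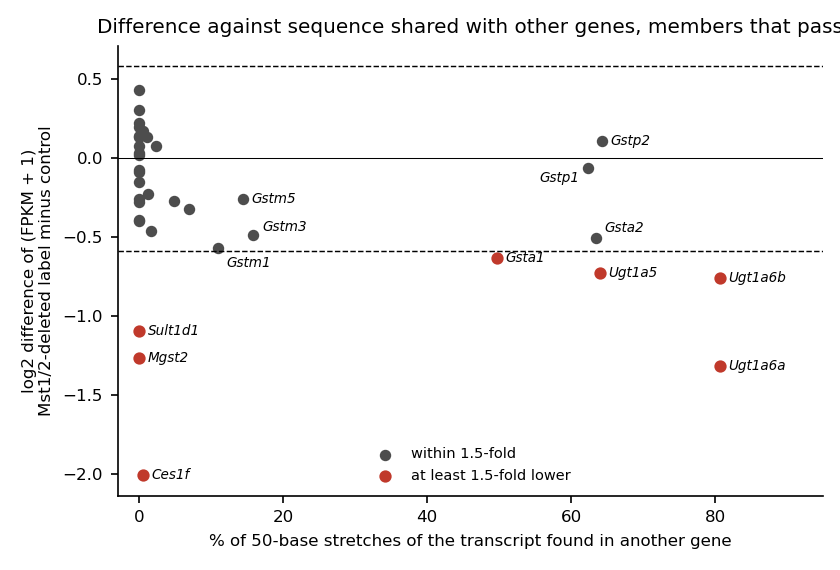
Each point is 1 of the 36 members: the horizontal axis gives the percent of its 50-base stretches found in another gene, the vertical axis its log2 difference of FPKM + 1 (library labelled Mst1/2-deleted minus control), and dashed lines mark 1.5-fold. Ces1f, Mgst2 and Sult1d1 lie at the left edge, and the 3 Ugt1a genes and Gsta1 lie at 49.6% or more.

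Glutathione transferases were the most abundant family. Their FPKM summed to 2099 and 1671, a ratio of 0.796. Gstm1, a mu class enzyme that acts on many electrophiles (chr3:107815168-107820891, mm9), made up 51.5% and 43.7% of that sum. It stood at FPKM of 1080.1 (rank 12 of all genes) in the control and 729.6 (rank 17) with the deletion label. The ratio was 0.675 (0.664 to 0.687), with a log2 difference of -0.57. That lies just short of the 1.5-fold limit, which is 0.58 on this scale, and Gstm1 was counted as lower once differences were centred on the median of all genes (-0.64). Without Gstm1, the summed FPKM of all members was 1333 and 1191, a ratio of 0.894. With it the ratio was 0.796, from 2413 and 1921.

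The neighbours of Gstm1 in the cluster on chromosome 3 did not all share its direction. Gstm2, at FPKM of 94.9 and 104, had a ratio of 1.10 (1.04 to 1.16). Gstm3 had FPKM of 15.6 and 10.8, giving a ratio of 0.695 (0.603 to 0.803). It shared 15.8% of its stretches with other genes, 9.83% with Gstm1. In the control it held about 506 reads against 37842 for Gstm1, so its value depends on how reads shared with Gstm1 were assigned. How far this bears on the ratio of Gstm3 was not tested. Gstm7 stood at 2.48 and 3.30, and Gstm4 at 1.91 and 1.74, with intervals that include a ratio of 1. Gstm5 (1.12 and 0.778) and Gstm6 (1.11 and 0.688) rested on at most 34 approximate reads in a library, and their intervals include 1 as well. Among the 7 mu class genes, 2 lay above 0 and 5 below, and none passed 1.5-fold.

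The alpha class, whose members reduce lipid hydroperoxides and conjugate lipid aldehydes, also held both directions. Gsta4, known for conjugating the lipid aldehyde hydroxynonenal, was the most abundant (chr9:78039773-78057156). Its FPKM of 249.9 and 237 gave a ratio of 0.949 (0.915 to 0.984). Gsta3, on chromosome 1, stood at FPKM of 106 and 121, a ratio of 1.15 (1.10 to 1.204). Gsta1 (chr9:78078476-78090490) had FPKM of 7.09 and 4.22, 1.68-fold lower (1.29 to 2.20). Gsta2, its close copy (chr9:78178827-78194952), had 30.9 and 21.5, 1.44-fold lower (1.28 to 1.62). Summed, Gsta1 and Gsta2 had FPKM of 37.96 and 25.7, giving a ratio of 0.678. Gsta2, the sum of this pair, and Gsta3 and Gsta4, which share no stretch, all lay within the 1.5-fold limit, so the call of Gsta1 does not hold in the sum.

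The other soluble classes lay within 1.5-fold. Gsto1, an omega class enzyme with thiol transferase and dehydroascorbate reductase activity, stood at FPKM of 83.3 and 68.7, a ratio of 0.824 (0.777 to 0.875). Gstt3, of the theta class, had 51.6 and 39.0, a ratio of 0.757 (0.712 to 0.804). Gstz1, which isomerises maleylacetoacetate in tyrosine breakdown, had 21.7 and 17.8. These 3 had intervals below a ratio of 1. Of the next 3, Gstk1 had an interval just above 1, and those of Gstt1 and Gstp2 include it. Gstk1, an enzyme of mitochondria and peroxisomes, had FPKM of 42.1 and 46.6, Gstt1 25.4 and 28.1, and Gstp2 6.88 and 7.49. Gstp1, the pi class enzyme, had 22.7 and 21.7, and Gstp1 and Gstp2, which share 62.3% and 64.3% of their stretches, summed to 29.5 and 29.2.

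The 3 microsomal transferases, membrane proteins of the endoplasmic reticulum, differed from each other. Mgst1, which protects membranes from peroxidation, had FPKM of 227 and 189.8 (chr6:138089058-138105273), a ratio of 0.836 (0.803 to 0.869). Mgst2, which can also make leukotriene C4, had FPKM of 15.5 and 5.88 (chr3:51465115-51486597), 2.64-fold lower (2.05 to 3.41). It rested on about 247 and 84 reads. Mgst3 had FPKM of 8.37 and 8.60, with an interval of the ratio from 0.803 to 1.31. Mgst1 was thus high in both libraries, and only Mgst2 of these 3 passed the 1.5-fold rule.

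Of the 21 glucuronosyltransferases, 3 passed the filter, and each of these was lower, beside 2.59% of all genes that passed. They are alternative starts of the Ugt1a locus on chromosome 1 and share reads, so they are not separate observations. Ugt1a6a, which conjugates small phenols (chr1:90031384-90116577), had FPKM of 16.4 and 5.97, 2.74-fold lower (2.47 to 3.04). Ugt1a6b had 5.01 and 2.56, 1.96-fold lower (1.601 to 2.41). Ugt1a5, which passed the filter only through the control, had 2.19 and 0.929, 2.36-fold lower (1.79 to 3.14). The summed FPKM of the 8 Ugt1a genes, which depends less on how reads were shared within the locus, was 24.4 and 9.88, a ratio of 0.406. Ugt1a6a gave 67.2% and 60.5% of that sum. Ugt1a1, the bilirubin-conjugating enzyme, had only 0.241 and 0.0877, and Ugt1a2 0.508 and 0.331. Among the other 13 members (Ugt2a, Ugt2b, Ugt3a and Ugt8a), none reached FPKM of 1, and 8 were listed at 0 in both libraries.

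**Figure D3:**
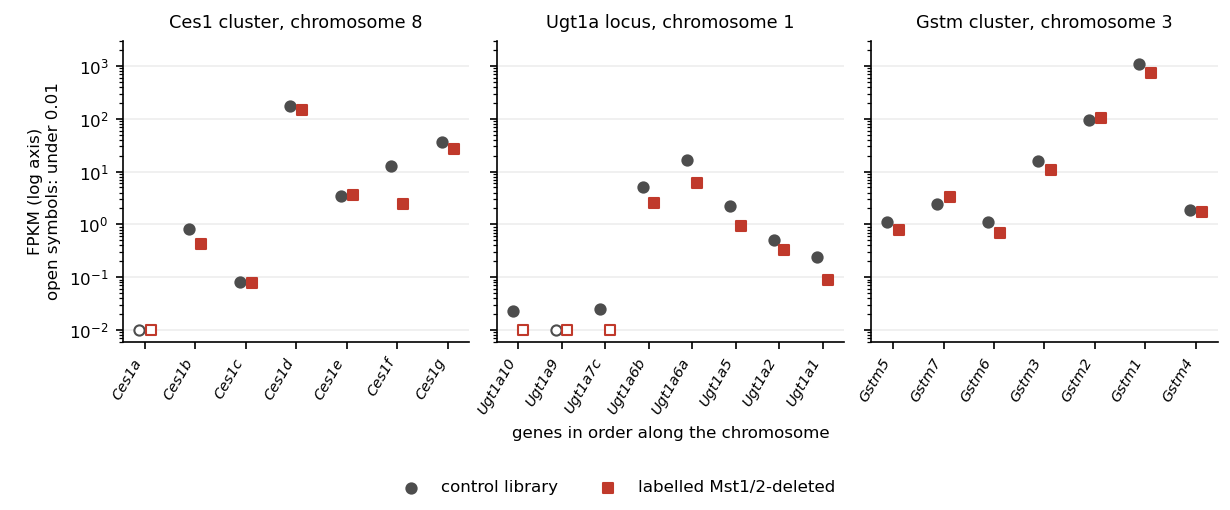
FPKM (log axis) of neighbouring genes in the Ces1, Ugt1a and Gstm clusters, in order along the chromosome, with circles for the control and squares for the deletion label. Open symbols at the bottom are values under 0.01. Ces1f has a wider gap than Ces1e and Ces1g beside it, the Ugt1a6 and Ugt1a5 squares all lie below their circles, and Gstm1 and Gstm2 go opposite ways.

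Sulfotransferases were few and low. Of 18 members, 3 passed the filter. Sult1d1, which sulfates catecholamines and related phenols in mice (chr5:87983675-87998031), had FPKM of 9.70 and 4.01, 2.42-fold lower (2.07 to 2.82). Sult1a1, a phenol sulfotransferase, had 6.97 and 7.97, with an interval of the ratio from 0.96 to 1.36. Sult2b1, which sulfates cholesterol, had 1.05 and 1.40 from about 32 and 39 reads. Sult1d1 was thus the most abundant sulfotransferase in the control library and second to Sult1a1 in the other. Its neighbours on chromosome 5 were near 0, Sult1b1 at 0.0167 and 0.036 and Sult1e1, which sulfates estrogen, at 0.075 and 0.

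Promoters of the lower members were read from a RefSeq table (build GRCm38.p6), which holds 5 of the 7; Ces1f and Ugt1a6b are not among them. The 250 bases before the start were searched on both strands for TGACNNNGC, the core of the antioxidant response element bound by Nrf2, and for GCGTG, the core bound by the aryl hydrocarbon receptor. The antioxidant core was in 0 of the 5 and in 10.2% of all 32851 promoters. The receptor core was in 2 of the 5, Sult1d1 and Ugt1a5, and in 28.2% of all promoters. Over the 29 members of the table that passed the filter, 5 held the first motif and 9 the second. A member was counted where any of its listed promoters held the motif, while the shares of all promoters count single promoters. The promoters of Ugt1a6a (chr1:88134559-88134808, plus strand), Ugt1a5 (chr1:88165762-88166011, plus strand) and Sult1d1 (chr5:87569007-87569256, minus strand) follow, 1 without and 2 with the GCGTG core. Capitals mark the GCGTG core, read on either strand.
Ugt1a6a: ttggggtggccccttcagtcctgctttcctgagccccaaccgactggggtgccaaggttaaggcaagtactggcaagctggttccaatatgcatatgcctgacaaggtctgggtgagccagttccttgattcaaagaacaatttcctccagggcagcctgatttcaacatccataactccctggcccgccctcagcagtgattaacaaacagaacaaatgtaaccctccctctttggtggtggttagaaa
Ugt1a5: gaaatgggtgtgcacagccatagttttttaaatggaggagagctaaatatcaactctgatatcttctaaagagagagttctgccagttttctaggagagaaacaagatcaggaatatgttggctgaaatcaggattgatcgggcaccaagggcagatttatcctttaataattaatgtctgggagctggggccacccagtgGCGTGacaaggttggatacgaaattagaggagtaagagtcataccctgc
Sult1d1: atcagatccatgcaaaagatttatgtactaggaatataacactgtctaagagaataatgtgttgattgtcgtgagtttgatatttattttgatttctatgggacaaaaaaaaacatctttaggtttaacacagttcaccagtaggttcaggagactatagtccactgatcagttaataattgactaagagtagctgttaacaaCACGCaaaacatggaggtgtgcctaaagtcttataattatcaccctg
A match in these windows is a description of letters and not evidence of binding.

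Carboxylesterases of the Ces1 cluster on chromosome 8 made up nearly the whole esterase signal, with summed FPKM of 228 and 182. Ces1d, a lipase and xenobiotic esterase (chr8:95689971-95721703), had FPKM of 174 and 149, giving a ratio of 0.856 (0.83 to 0.883). Ces1g had 37.1 and 26.7, a ratio of 0.721 (0.675 to 0.77). Ces1f (chr8:95780135-95803635) had FPKM of 12.8 and 2.42, 5.27-fold lower (4.32 to 6.51), from about 661 and 112 reads. It had the largest difference of all 36 members. Ces1e, its neighbour, had 3.43 and 3.67, a ratio of 1.07 (0.866 to 1.31). The 11 Ces2 to Ces5 members were all under FPKM of 1, and 6 of them were listed at 0 in both libraries.

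All 4 export pumps that passed the filter lay within the 1.5-fold limit. Abcc3, which exports glucuronides and bile acids (chr11:94204609-94254290), carried 72.5% and 72.0% of the family's summed FPKM. Its FPKM was 30.8 and 31.2, a ratio of 1.02 (0.971 to 1.06). Abcc1, the pump for glutathione conjugates and leukotriene C4, had 5.47 and 4.84, a ratio of 0.884 (0.7999 to 0.979). Abcc4, which exports cyclic nucleotides and urate, had 2.96 and 3.18, with an interval that includes a ratio of 1. Abcc5 had the largest positive log2 difference of FPKM + 1 among the members that passed the filter, 0.44, at FPKM of 1.88 and 2.90. Its ratio of FPKM without the added 1 was 1.54. The interval from reads summed over its 2 transcripts was 1.25 to 1.74. The summed FPKM of the 10 Abcc genes was 42.4 and 43.4, a ratio of 1.02, most of it from Abcc3, against a ratio of 0.407 for the sum of the 21 glucuronosyltransferases. The difference between the families was not tested.

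**Figure D4:**
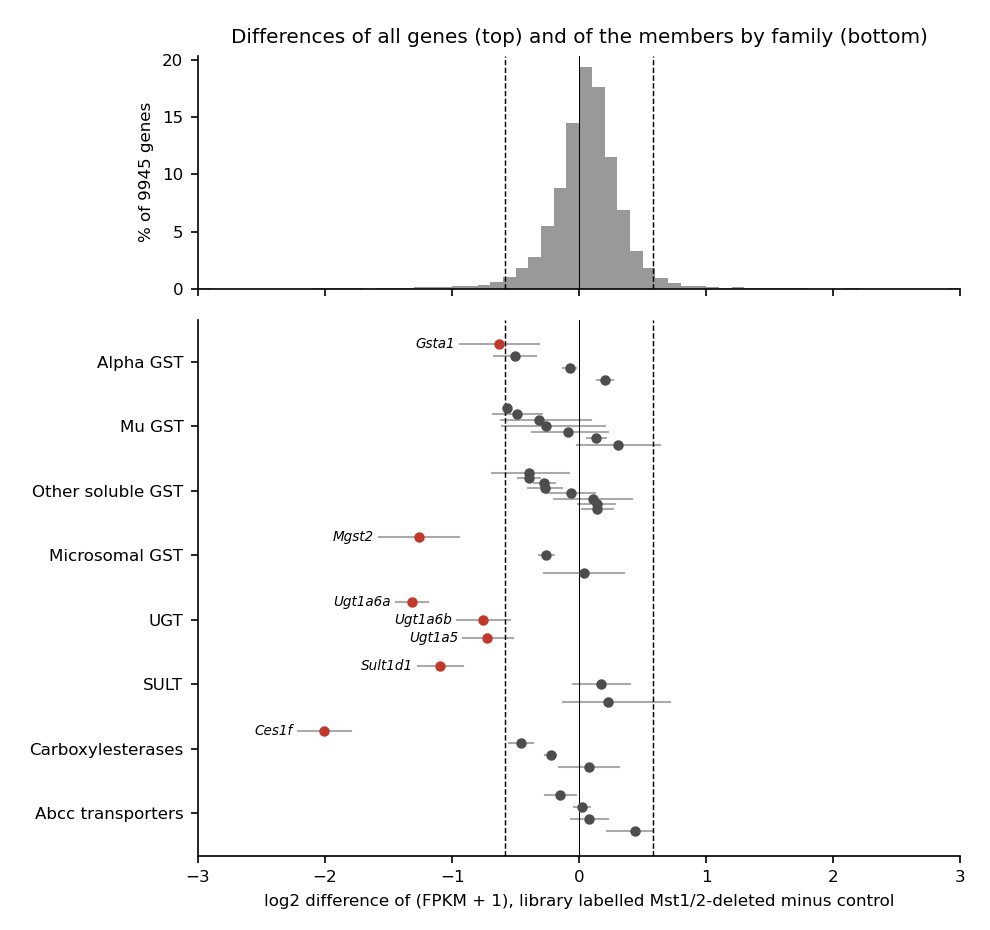
Top, the share of the 9945 genes that passed the filter in bins of the log2 difference of FPKM + 1 (library labelled Mst1/2-deleted minus control). Bottom, the 36 members by family on the same axis, with 95% intervals for counting error only, the 7 lower members named, and dashed lines at 1.5-fold. All 4 Abcc genes lie within the lines and the 3 glucuronosyltransferases lie below them.

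In bands of level set after the values were seen, 0 of 14 members with a mean FPKM of at least 20 were lower, 6 of 14 from 3 to 20, and 1 of 8 under 3. Of all genes in these bands, 2.85%, 1.81% and 3.52% were lower. The most abundant member, Gstm1, lay just inside the 1.5-fold limit. It was lower on a TPM scale, with centring and with the transcript length trend removed, and in each of these settings it alone of the 14 was lower. Gsta4, Mgst1, Ces1d and Gstm2 were not counted as lower at any of these settings.

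The 55 members under FPKM of 1 in both libraries add little signal. Of these, 19 were listed at 0 in both, where 3 reads would have given FPKM of 0.033 to 0.13 in the control. A further 23 were above 0 in both, some by values far under 1 read, such as Ugt1a9 at 8.91e-09 and 2.95e-09. Their directions are not counted, as no share over all low genes was computed. Fewer than 3 approximate reads in each library stood behind 34 of the 55. Named after their values were seen, Ugt2b34 had FPKM of 0.52 and 0.0986, 5.27-fold lower (2.45 to 14.5), and Abcc8, a subunit of the ATP-sensitive potassium channel, 0.344 and 0.0583, 5.90-fold lower (2.64 to 15.4). Both rested on about 7 reads in the second library. In the other direction, Ugt8a, which makes galactosylceramide, had 0.0731 and 0.192 from about 7 and 17 reads. Sult6b1 had 0.0198 and 0.175, 8.83-fold higher (1.39 to 441), from about 1 and 9 reads.

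Other genes of conjugation were taken from lists that do not overlap the members. Counts are of the genes that passed the filter (called measured), and sums run over every listed gene in the tables. Of all genes that passed, 2.59% were lower and 3.02% higher. Slc7a11, Ggct, Dpep1 and Alox5ap, all lower, passed only through the control. Of 16 measured genes for the supply of glutathione, UDP-glucuronate and sulfate donor, 1 was lower and 0 higher. It was Slc7a11, the cystine carrier for glutathione synthesis, with FPKM of 4.57 and 0.771, 5.93-fold lower (5.06 to 7.01). The synthesis enzymes Gclc (92.2 and 81.4) and Gss (19.7 and 14.3), and Slc3a2 (46.99 and 44.9), which pairs with Slc7a11, lay within 1.5-fold. Among 9 genes that process glutathione conjugates, Ggct (2.20 and 0.965) and Dpep1 (1.45 and 0.366) were lower and 0 were higher. Anpep, the aminopeptidase N gene, had 35.1 and 46.2, and Acy3, a deacylase of mercapturates, 2.58 and 3.13.

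Of 6 other conjugating enzymes, the acyl-CoA synthetase Acsm1 (6.91 and 3.33) and the methyltransferase Inmt (4.30 and 2.40) were lower and 0 higher. Hnmt, which methylates histamine, had 7.89 and 6.66. Of 11 other hydrolases, Pon1 was lower, at 70.9 and 35.6, a paraoxonase encoded beside Pon3, which had 73.96 and 85.98. Nceh1 (6.12 and 11.2) and Lipa (1.48 and 2.76), both cholesterol ester hydrolases, were higher, and the esterase Esd had 19.07 and 19.1. Of 17 other transporters, Slco3a1, an organic anion carrier, was higher at 9.47 and 23.6, and 0 were lower. Abca3 (50.1 and 60.3), Slco4c1 (23.6 and 28.4) and Abcd3 (21.9 and 26.6) were the most abundant of these in the control.

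Among 10 relatives of the microsomal transferases and genes with the same protein fold, Clic3 (68.5 and 174) and Clic5 (16.3 and 53.4), both chloride channel proteins, were higher. Alox5ap, the 5-lipoxygenase activating protein gene, was lower at 1.36 and 0.111, and Eef1g had 53.8 and 52.5. Of these, Clic5 is also in the list of alveolar type 1 cell markers. Of 15 measured receptors and factors that can induce conjugation genes, 0 were 1.5-fold higher or lower. Nfe2l2, the Nrf2 gene, had FPKM of 72.7 and 83.4, Cebpa 21.7 and 22.4, and Nfe2l1 12.9 and 15.4. Ahr, the aryl hydrocarbon receptor gene, had 13.1 and 8.81, a ratio of 0.673 (0.626 to 0.724), the lowest log2 difference of that list at -0.52. The xenobiotic receptors Nr1i2 and Nr1i3 were under FPKM of 1 in both libraries.

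Markers of several cell types differed in the same libraries, and their part in the values of the members was not tested. Of all genes that passed the filter, 2.59% were lower and 3.02% higher. Some markers passed it only through the library where they were higher, which favours a call in that direction. Of the lower ones these were Agr2, Gp2, Tff2, Coro1a, Laptm5, Tyrobp and Mfap4, through the control. Of the higher ones they were Fam183b, Ak7 and Rtkn2, through the other library. Of 18 measured club cell markers, 6 were lower and 1 higher (Cyp2b10, 17.7 and 43.5), with a median log2 difference of -0.41. Above 0 lay 4 of them and below 0 lay 14. Their FPKM summed to 12478 and 10650.1, which includes Cbr2 at 5224 and 3803 and leaves out Scgb1a1. All 5 measured mucous cell markers were lower (median -1.28, sums of 33.8 and 10.9), as were 3 of 8 basal cell markers (median -0.51), with 1 higher (Icam1) that took their sum the other way, from 61.6 to 64.7. The mucous cell marker Tff2 was listed at 0 in the library labelled Mst1/2-deleted. Of 14 alveolar type 1 cell markers, 10 were higher and 0 lower, with sums of 250.2 and 524. Alveolar type 2 cell markers, 1 of 16 higher and 0 lower, had a median of 0.30 and sums of 17967 and 21936. Ciliated cell markers had a median of 0.46 and sums of 39.7 and 65.6, with 4 of 10 higher and 0 lower. Leukocyte markers were low, with 4 of 6 lower and 0 higher and sums of 15.7 and 7.56. The other 2, Csf1r (0.984 and 1.80) and Cd79a (0.527 and 1.06), lay above 0 but within the 1.5-fold limit. Ptprc, which did not pass the filter, was at 0.519 and 0.172. Mesenchymal markers summed to 19.9 and 8.85, with 2 of 4 lower. Among endothelial markers Kdr alone passed the filter and was lower, and Pecam1 was at 0.878 and 0.565. Of 6 neuroendocrine markers 0 passed 1.5-fold, with sums of 19.6 and 16.4.

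**Figure D5:**
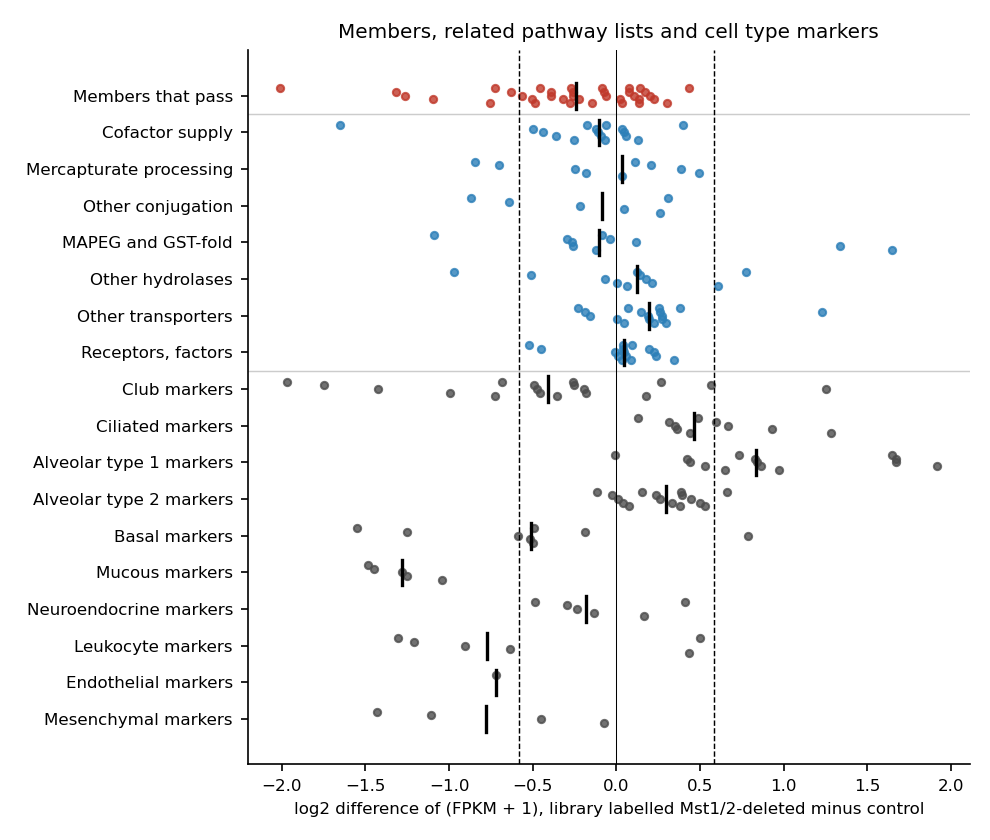
Log2 difference of FPKM + 1 (library labelled Mst1/2-deleted minus control) for every measured gene of each list: the 36 members, the related pathway lists and the cell type markers. Bars are list medians and dashed lines mark 1.5-fold. The members' median is -0.24, and those of the pathway lists run from -0.10 to 0.19. Medians of the cell type markers run from -1.28 (mucous) to 0.83 (alveolar type 1), with neuroendocrine at -0.18, club at -0.41 and basal at -0.51.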

How the data were processed

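RNA-seq was measured in 2 libraries, with 4 mice pooled in each. TopHat, Cufflinks and the mm9 build are named in the submitters' processing notes; no version or setting is stated in the material used. Each of 28107 RefSeq transcript rows holds, per the file headers, the authors' FPKM, and their coverage, a signal giving mean read depth. The transcript lengths deposited by the authors, in the file headers' length column, are in bases. All 106 rows of members had estimation status OK in both libraries.

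Rows were joined on transcript and locus, and FPKM was summed per symbol. Differences are on the log2(FPKM + 1) scale, control subtracted; the pseudocount of 1 understates those of low genes. Approximate reads are coverage times length over 47.1 bases, the median of values between 25 and 75 bases in genes with 1 row, an assumed read size. Rounded, they gave exact (Clopper-Pearson) 95% intervals, scaled by the depth ratio of 0.895, and a floor of 3 reads. For genes with more than 1 transcript row the interval is that of the summed reads, which can differ from the ratio of summed FPKM. Amplified reads are not independent molecules, and intervals assume the authors' assignment of reads. Row starts were raised by 1 to count from 1.

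Members with FPKM of at least 5 in a library or at least 1.5-fold apart were named, and of each related list the 3 most abundant genes and those 1.5-fold apart; others were named by family or after their values were seen. The values of 1 list gene are not reported here. The members and lists were chosen with earlier results of these data known. The fold rule and interval were also run on simulated counts drawn from the control at equal depth, with 3-fold changes in genes with FPKM of at least 5. These counts held only the counting error that the interval assumes. They left out read sharing, the spread between mice and low genes, so they do not test the calls made here. Python 3.11.15, numpy 2.4.6, pandas 2.3.3, scipy 1.17.1 and matplotlib 3.10.9 were used. Alternatives tried were 2 other pseudocounts, 2 other filters, 3 scalings, the highest row per symbol, status OK rows, summed clusters and a 2-fold rule.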

Additional observations from a re-analysis of the deposited data

How the results depend on the processing

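Across the alternatives run, none of the 27 named members that was called reversed; most settings cannot change a sign, so this is no sign of stability. Abcc3 and Mgst3, both near 0, changed sign in at least 1 alternative. The number lower was 8 with a pseudocount of 0.1 (4.79% of all genes lower), with centring on the median of all genes (3.27%) and with the transcript length trend removed (2.96%), and 6 of 26 with the filter at FPKM of 5 (2.45%). It was 4 of 36 with a pseudocount of 5 and 4 with a 2-fold rule (Ces1f, Mgst2, Sult1d1 and Ugt1a6a in both, beside 0.684% and 0.975% of all genes lower). It was 4 of 31 with the Ugt1a genes summed and the Ces1 genes summed, since the Ces1 sum (log2 difference -0.32) replaces Ces1f and the Ugt1a sum (-1.22) replaces 3 members. After conversion to TPM 48 members passed the filter, with 17 lower and 2 higher and a median of -0.39, beside 8.79% and 6.79% of all genes. The filter and pseudocount stayed at 1, a lower level on that scale, so these counts do not show the effect of the scaling alone. A pseudocount of 0.1 gave 1 higher member, Abcc5, beside 6.17% of all genes. Leaving out members with over 10% shared sequence, an alternative chosen after seeing the data, gave 3 of 26 lower and a median of -0.0815. The median of the members was -0.10 with a pseudocount of 5 and -0.0181 without a filter, where 55 low members enter. Members that passed had shorter transcripts (median 1330 bases) than all genes (2733), and the difference went up with length (Spearman rho 0.17 across genes, which are not independent replicates). With the length trend removed the median of the members was -0.26, and with centring alone it was -0.31. The median of all genes was 0 in both of these settings, so -0.26 is to be set beside -0.31. No paired analysis was possible because there is 1 library per genotype. Leaving out a library is not possible either.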

Other observations

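A few members are listed with more than 1 transcript, and their rows can be set side by side. Gsta3 has transcripts of 1355 and 1450 bases. With the control first, the shorter had FPKM of 86.1 and 96.3 and the longer 19.5 and 25.01, so both were slightly higher. Abcc5 has a long transcript of 5810 bases, with 1.59 and 2.32, and a short one of 1176 bases, too short to encode the whole pump, with 0.293 and 0.581. Both rows of Abcc5 were thus higher in the library labelled Mst1/2-deleted. Abcc4 was mostly listed under its transcript of 5504 bases, at 2.49 and 2.46, while that of 5729 bases had 0.478 and 0.722. Abcc10, under FPKM of 1 in sum, had 0.643 and 0.859 for its transcript of 4857 bases and 0.15 and 0.121 for that of 5457 bases. How Cufflinks divided reads between transcripts of 1 gene bears on each of these values.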
